A study of Mus musculus with 12 samples.

Results

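The Cast/EiJ alleles of autosomal genes were followed from the pure strain into reciprocal hybrids, so that the same allele was measured in a pure Cast/EiJ retina and in a retina that also carried a C57BL/6J genome. The tables held 37991 genes, of which 34964 were autosomal. A gene was kept when its uniquely assigned read pairs, summed over both alleles, averaged 50 or more in the F1 libraries, whether or not it moved. This left 10743 genes, 10406 of them protein coding. All animals were untreated males of 8 weeks, and each library was made from a pool of 6 to 8 retinas. The groups were 3 libraries of F0 Cast/EiJ, 3 of F1 B6xCast (C57BL/6J father, Cast/EiJ mother) and 3 of F1 CastxB6 (Cast/EiJ father, C57BL/6J mother), and 3 libraries of F0 C57BL/6J served for comparison. Each F0 library ran on 1 lane and each F1 library on 2. F0 reads were mapped to the transcriptome of their own strain and F1 reads to that of both strains. Lanes, mapping and generation therefore cannot be told apart in any difference between F1 and F0.

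An allele in a hybrid keeps its own promoter and enhancers, which act in cis, but is read by transcription factors and other diffusible regulators made from both genomes, which act in trans. Comparing the same allele in the pure strain and in the hybrid therefore asks how expression changes with the trans environment. Imprinted genes are an exception, since the parent that passed on the allele decides whether it is used. In the retina, rods and cones capture light, bipolar, horizontal and amacrine cells process the signal, ganglion cells send it to the brain, and Mueller glia support them all.

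Allele levels are given in count equivalents, the authors' normalized estimate of reads per gene and allele, and changes as log2(value + 1) in F1 minus F0, with the SE of the fit. The median change over all genes was -0.01. Unique hits, the read pairs assigned to 1 gene and allele, ranged per library from 8158534 to 10078766 in F0 Cast/EiJ, and on the Cast/EiJ allele from 4446066 to 6237367 in F1 B6xCast and from 5199813 to 5924149 in F1 CastxB6. Replicate 1 of F0 Cast/EiJ and replicate 1 of F1 B6xCast stood apart from their groups. In F1 B6xCast, chi-square per degree of freedom over unique hits was 6.71 and 6.77 for the pairs with replicate 1 and 1.57 for the other pair. The rod marker Gnat1, the transducin subunit of rods, was at 4324 to 4771 FPKM (reads per length and depth) in F0 Cast/EiJ, 4681 to 5192 in F1 B6xCast and 4926 to 5194 in F1 CastxB6. Markers of other tissues were detected. The blood markers Hba-a1, Hbb-b1 and Slc4a1 summed to 33.3 to 55.0 FPKM in F0 Cast/EiJ, 13.8 to 25.5 in F1 B6xCast and 20.4 to 30.3 in F1 CastxB6, with Slc4a1 at most 0.0828. Hba-a1 was lower in the hybrids (27.6 to 43.3 FPKM in F0 Cast/EiJ, 2.73 to 12.6 and 6.79 to 17.8 in the crosses), and Hbb-b1 was not (5.58 to 11.6, 10.9 to 12.9 and 10.6 to 13.6). The lens markers Cryaa, Crybb2, Lim2 and Mip summed to 4.48 to 13.2, 4.45 to 7.15 and 7.38 to 12.5 FPKM, with Mip at most 0.202 and Lim2 at most 0.139. Their part in the results was not tested. In bulk tissue, fewer cells of a type and less RNA per cell cannot be told apart.

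The Cast/EiJ allele was higher in the hybrids for 1033 genes (9.62%) and lower for 536 (4.99%), so 14.6% of all genes were called by limma at an adjusted p under 0.05. In F1 B6xCast 712 genes rose (6.63%) and 286 fell (2.66%), 9.29% in all. In F1 CastxB6 808 rose (7.52%) and 407 fell (3.79%), 11.3% in all. Both crosses were set against the same F0 libraries, and 575 rises (5.35%) and 165 falls (1.54%) were called in each of them. Most changes were small, with a median size of 0.41 among called genes. At least 1.5-fold were 349 rises (3.25%) and 90 falls (0.838%), and at least 2-fold 116 rises (1.08%) and 52 falls (0.484%). The 6 hybrid values lay beyond all 3 pure values in 2058 genes (19.2%). Long intergenic RNAs were called more often, 31.2% of 199, than protein-coding genes, 14.1%, and of 44 pseudogenes 34.1% were called.

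The total of 1569 calls was 961 without F0 Cast/EiJ replicate 2 and 2113 without F1 B6xCast replicate 1, and 1649 without both libraries that stood apart, of which 1239 were shared. As a reference, the change of the Cast/EiJ allele was compared with that of the C57BL/6J allele in the same libraries. This difference was called for 1730 genes (16.1%), 988 higher on the Cast/EiJ side (9.2%) and 742 lower (6.91%). On unique hits, tested with edgeR, it was called for 1692 (15.7%), 1231 higher (11.5%) and 461 lower (4.29%). Higher calls were 57.1% in the first and 72.8% in the second, which differ in both unit and test, and 61.3% and 63.8% in count equivalents rescaled with TMM or DESeq2 size factors.

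**Figure D1:**
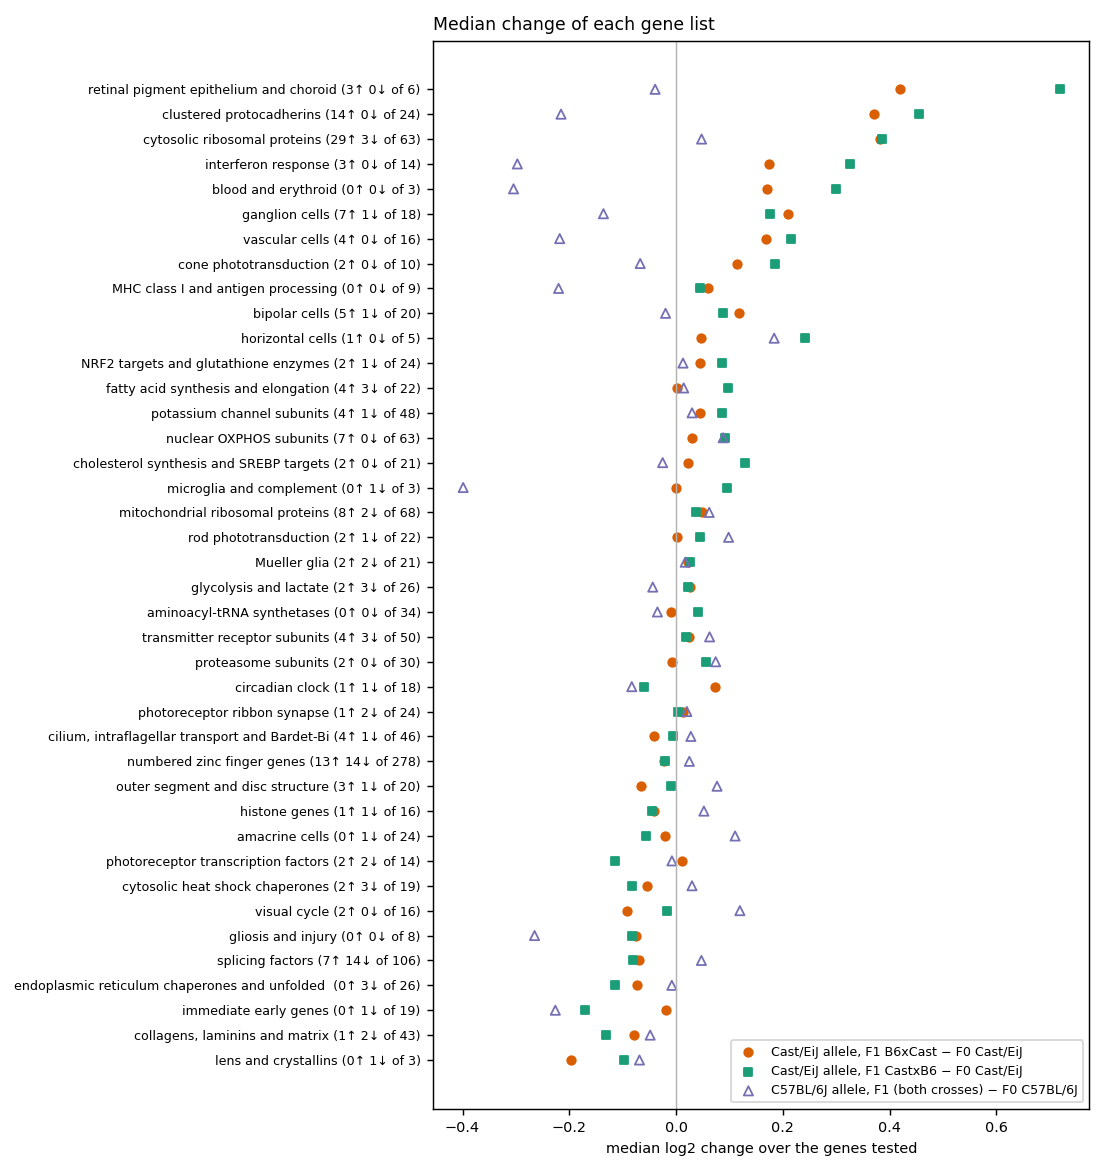
Median log2 change (horizontal axis) over the tested genes of each gene list except the imprinted one, with the number called up and down beside each name. Circles and squares are the Cast/EiJ allele in F1 B6xCast and F1 CastxB6 against F0 Cast/EiJ, and open triangles the C57BL/6J allele in both crosses against F0 C57BL/6J. Clustered protocadherins (0.37 and 0.46) and cytosolic ribosomal proteins (0.38 and 0.39) lie to the right of most other lists.

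Among photoreceptor transcription factors, Rorb and Samd7 rose and Casz1 and Prdm1 fell, 4 of 14 genes tested, with a median of -0.06. That was 28.6% called, beside 14.6% over all genes. Rorb, a nuclear receptor needed to make rods, had 4090, 5090 and 4710 count equivalents in F0 Cast/EiJ, 5630, 5700 and 5760 in F1 B6xCast and 5560, 6130 and 6030 in F1 CastxB6. Every hybrid value lay above the pure ones, and the change was 0.33 ± 0.07 (adjusted p = 0.0087, limma). F0 C57BL/6J was higher still, at 6490 ± 566 (SD, n = 3), and its allele fell by 0.24 in the hybrids, so that both alleles stood between the levels of the pure strains.

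Samd7, a Polycomb-associated repressor in photoreceptors, had 6310, 6610 and 6780 count equivalents in F0 Cast/EiJ, 9640, 9610 and 8950 in F1 B6xCast and 9040, 9000 and 8780 in F1 CastxB6 (0.48 ± 0.05, adjusted p = 9.2e-05). Here the groups did not overlap either, but the strains differed the other way. F0 C57BL/6J averaged 2980 ± 373 (SD, n = 3) and its allele fell by 0.92, so the alleles lay further apart in the hybrids than the pure strains did. Casz1, a zinc finger regulator of photoreceptor fate, fell by 0.33 ± 0.04 (adjusted p = 0.00066). Prdm1, which holds back bipolar fate in photoreceptor precursors, fell by 0.32 ± 0.06 (adjusted p = 0.0048), while its C57BL/6J allele rose by 0.51. The rod factors Crx (-0.08 ± 0.07, adjusted p = 0.47), Nrl (0.13 ± 0.09, adjusted p = 0.33) and Nr2e3 (-0.13 ± 0.05, adjusted p = 0.12) did not pass the test.

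Rod phototransduction stayed near the background, with 2 rises and 1 fall among 22 genes (13.6% called beside 14.6%) and a median of 0.03. Pdc, which encodes the transducin-binding protein phosducin, had 22700, 24900 and 23900 count equivalents in F0 Cast/EiJ, 31300, 32500 and 32400 in F1 B6xCast and 27600, 30800 and 31400 in F1 CastxB6 (0.38 ± 0.06, adjusted p = 0.0016). Rgs9bp, the anchor of the complex that turns transducin off, rose by 0.27 ± 0.04 (adjusted p = 0.002). Pde6g, the inhibitory subunit of the rod phosphodiesterase, had 24000, 25000 and 26900 in F0 Cast/EiJ, 18800, 20900 and 21100 in F1 B6xCast and 20600, 20200 and 18500 in F1 CastxB6 (-0.34 ± 0.06, adjusted p = 0.0047). All 3 genes were free of overlap between pure strain and hybrids. The C57BL/6J allele of Pde6g rose by 0.37, and the mean of both alleles in the hybrids, 26710, was close to F0 Cast/EiJ at 25300 and F0 C57BL/6J at 25800.

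Of 10 cone genes 2 rose, 20% called beside 14.6% over all genes. Opn1sw, the short-wavelength opsin, had 2850, 2520 and 2480 count equivalents in F0 Cast/EiJ, 3670, 3090 and 3280 in F1 B6xCast and 3520, 3440 and 3400 in F1 CastxB6 (0.38 ± 0.07, adjusted p = 0.0039). The hybrids stood above the pure strain and below F0 C57BL/6J, at 4513 ± 341 (SD, n = 3). Pde6h, the cone counterpart of Pde6g, rose by 0.48 ± 0.07 (adjusted p = 0.0018), but with the deposited log expression it was at -0.45 (adjusted p = 0.0045), so its direction depends on the unit.

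Among 20 outer segment genes Fscn2, an actin bundler (0.42 ± 0.07, adjusted p = 0.0043), Impg1 and Nxnl1 rose and Unc119 fell, the last a call lost under 10 of 15 alternatives. Of this list 20% were called, beside 14.6% over all genes. Of 46 ciliary genes 4 rose and 1 fell, 10.9% called beside 14.6% over all genes, with a median of -0.01. In F1 B6xCast alone 2 rose and 3 fell, and in F1 CastxB6 alone 4 rose and 1 fell. Kif3a, a motor subunit of intraflagellar transport, rose by 0.37 ± 0.06 (adjusted p = 0.0017), and Cep290, a protein of the ciliary transition zone, fell by 0.32 ± 0.06 (adjusted p = 0.0081). Of 24 ribbon synapse genes 1 rose and 2 fell, 12.5% called beside 14.6% over all genes. Snap25, a vesicle fusion protein, rose by 0.29 ± 0.05 (adjusted p = 0.0047), Bsn, a scaffold of the active zone, fell by 0.20 ± 0.05 (adjusted p = 0.027), and Unc119 is counted in this list too. No gene of the list was called in F1 CastxB6 alone, where the adjusted p of Snap25 was 0.055, and the falls numbered 0 without F0 Cast/EiJ replicate 1 or 3, F1 B6xCast replicate 2 or 3 or F1 CastxB6 replicate 2 or 3, and 1 without F1 CastxB6 replicate 1.

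**Figure D2:**
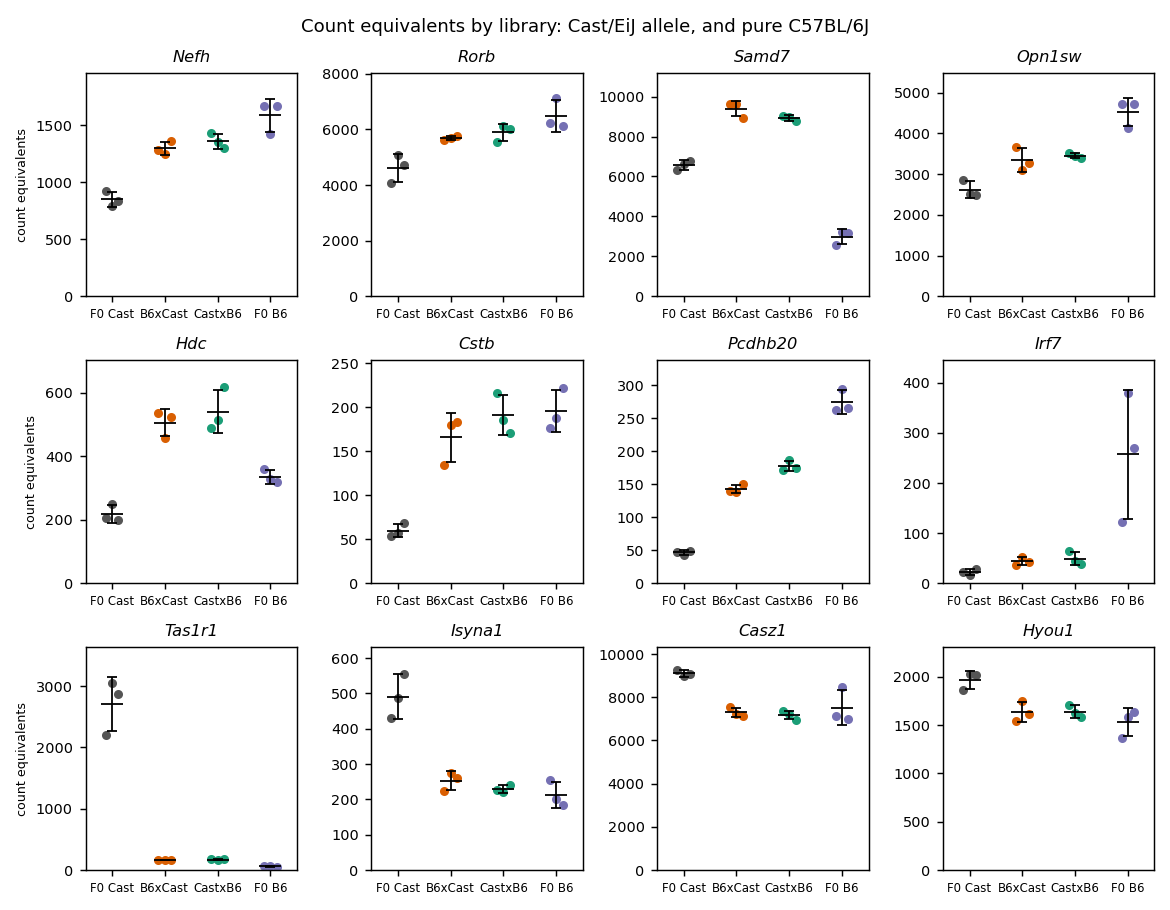
Count equivalents (vertical axes from 0) of 12 genes in the 3 libraries each of F0 Cast/EiJ, of the Cast/EiJ allele in F1 B6xCast and F1 CastxB6, and of F0 C57BL/6J. Points are libraries, and black marks the mean with its SD. For Nefh, Rorb, Samd7, Opn1sw, Hdc, Cstb, Pcdhb20 and Irf7 the hybrid values lie above those of F0 Cast/EiJ, and for Tas1r1, Isyna1, Casz1 and Hyou1 below them.

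Of 18 ganglion cell genes 7 rose and 1 fell, 44.4% called beside 14.6% over all genes, with a median of 0.19 beside -0.01. The rises were Nefh, Nefm and Nefl, the neurofilament subunits of large axons, Tubb3 and Stmn2, a part and a regulator of neuronal microtubules, Thy1, a surface glycoprotein, and Chrna6, a nicotinic receptor subunit. In F1 B6xCast alone 4 rose and in F1 CastxB6 alone 7, with medians of 0.21 and 0.18. Nefh had 925, 788 and 836 count equivalents in F0 Cast/EiJ, 1280, 1250 and 1360 in F1 B6xCast and 1430, 1350 and 1300 in F1 CastxB6 (0.65 ± 0.06, adjusted p = 0.00012). No hybrid library reached down to the pure ones, and F0 C57BL/6J stood at 1587 ± 144 (SD, n = 3). Thy1 had 1590, 1470 and 1570 in F0 Cast/EiJ, 2010, 1830 and 1870 in F1 B6xCast and 1860, 1990 and 1920 in F1 CastxB6 (0.31 ± 0.05, adjusted p = 0.0037). Nefm and Tubb3 overlapped between pure strain and hybrids, and Nefl shares reads with other sequences (unique ratio 0.59, as defined for the ribosomal genes).

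Over all genes the alleles changed differently in 16.1% (9.2% higher on the Cast/EiJ side), and on unique hits in 15.7% (11.5% higher). They did so in 9 of the 18 ganglion cell genes, 8 of them higher on the Cast/EiJ side, and on unique hits in 8, with 7 higher. The median of the C57BL/6J allele was -0.14. Leaving out single libraries left 5 to 7 rises. The markers Nefl, Thy1, Rbpms and Sncg summed to 199 to 220 FPKM in F0 Cast/EiJ, 167 to 185 in F1 B6xCast and 179 to 200 in F1 CastxB6. That sum holds the fall of Sncg. The part of ganglion cell content in these results was not tested. Among 50 transmitter receptor subunits 4 rose and 3 fell, 14% called beside 14.6% over all genes. Chrnb3, a nicotinic subunit that can assemble with Chrna6, rose by 0.59 ± 0.07 (adjusted p = 0.00044), and Gria1, Grik1 and Grik5, glutamate receptor subunits, were the falls, none of which was called without F0 Cast/EiJ replicate 3, and 1 without F0 Cast/EiJ replicate 2, F1 B6xCast replicate 2 or 3 or F1 CastxB6 replicate 2.

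Of 20 bipolar genes 5 rose and 1 fell, 30% called beside 14.6% over all genes, with a median of 0.11. Car8, a carbonic anhydrase relative, rose by 0.66 ± 0.12 (adjusted p = 0.0042). Gpr179, which organizes the signalling complex of ON bipolar dendrites, had 1660, 1710 and 1600 count equivalents in F0 Cast/EiJ, 2290, 2090 and 2060 in F1 B6xCast and 1960, 1900 and 1940 in F1 CastxB6 (0.30 ± 0.05, adjusted p = 0.0039), without overlap. Vsx1, Cabp5 and Calb2 rose by 0.38, 0.18 and 0.16, and the kainate receptor subunit Grik1 fell by 0.25. The rises numbered 3 without F0 Cast/EiJ replicate 2 or 3 or F1 CastxB6 replicate 3. Of 24 amacrine genes (4.17% called) Tfap2a, a transcription factor, was called (-0.35 ± 0.09, adjusted p = 0.029), a call lost under 8 of 15 alternatives. Of 21 Mueller glia genes 2 rose and 2 fell, 19% called beside 14.6% over all genes. These calls were weak, and the rises of Vim and Abca8a were both lost without F0 Cast/EiJ replicate 1 or 2, F1 B6xCast replicate 2 or 3 or F1 CastxB6 replicate 3.

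Vascular genes had 4 rises and no fall among 16, with a median of 0.17, and 2 rises without F0 Cast/EiJ replicate 1. The 4 rises made 25% called, beside 14.6% called and 9.62% rising over all genes. In F1 B6xCast alone 3 rose and in F1 CastxB6 alone 1. Slco1a4, an organic anion transporter of barrier endothelium, had 39.6, 61.7 and 65.7 count equivalents in F0 Cast/EiJ, 102, 122 and 126 in F1 B6xCast and 103, 94.2 and 103 in F1 CastxB6 (0.97 ± 0.16, adjusted p = 0.0034). Ly6c1 (0.72 ± 0.16, adjusted p = 0.014), Cldn5, which seals endothelial junctions (0.57 ± 0.15, adjusted p = 0.032), and Slco1c1 (0.42 ± 0.10, adjusted p = 0.021) also rose. The endothelial markers Pecam1, Cdh5 and Cldn5 summed to 2.98 to 3.54 FPKM in F0 Cast/EiJ, 3.60 to 4.97 in F1 B6xCast, 4.33 to 5.17 in F1 CastxB6 and 4.74 to 7.44 in F0 C57BL/6J. The part of vessel content in these rises was not tested.

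Of 6 genes listed for the pigment epithelium and choroid, Ttr, Rgr and Col8a1 rose, and 1 was called without F0 Cast/EiJ replicate 1 or F1 CastxB6 replicate 2. These rises were 50% of the list, beside 14.6% called over all genes. Ttr, the thyroxine and retinol carrier, had 28.3, 51.5 and 41.9 count equivalents in F0 Cast/EiJ, 56.8, 139 and 107 in F1 B6xCast and 69.4, 127 and 119 in F1 CastxB6 (1.29 ± 0.30, adjusted p = 0.017). All 8 marker genes of this tissue summed to 4.58 to 5.52 FPKM in F0 Cast/EiJ, 4.73 to 11.4 in F1 B6xCast and 8.16 to 12.5 in F1 CastxB6, a sum that holds Ttr itself. Several other markers of the tissue were higher in hybrid libraries, with overlap in F1 B6xCast for Rdh5 and Rpe65 and in both crosses for Dct. Rdh5 was at 1.38 to 1.51 FPKM in F0 Cast/EiJ, 1.15 to 2.49 in F1 B6xCast and 2.05 to 3.53 in F1 CastxB6, Rpe65 at 0.330 to 0.407, 0.00417 to 0.958 and 0.523 to 1.52, and Lrat at 0.0696 to 0.129, 0.210 to 0.259 and 0.199 to 0.306. Tyr was at 0.0124 to 0.0215 in F0 Cast/EiJ, 0.0277 to 0.128 in F1 B6xCast and 0.0456 to 0.0695 in F1 CastxB6, without overlap. Dct was at 0.408 to 0.694 in F0 Cast/EiJ, 0.150 to 0.902 in F1 B6xCast and 0.614 to 1.01 in F1 CastxB6. Best1 and Mlana were not higher in this way, at most 0.157 and 0.335 in the hybrids and 0.0861 and 0.577 in F0 Cast/EiJ. The part of adhering tissue in the result was not tested.

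Interferon response genes had 3 rises and no fall among 14, and their median was 0.28 (F1 B6xCast 0.17, F1 CastxB6 0.33). That was 21.4% called beside 14.6% over all genes, with 1 rise in F1 B6xCast alone and 2 in F1 CastxB6 alone. Irf7, a central factor of type I interferon induction, had 21.6, 16.0 and 29.1 count equivalents in F0 Cast/EiJ, 36.6, 53.1 and 42.1 in F1 B6xCast and 64.7, 45.1 and 38.1 in F1 CastxB6. The groups did not overlap (1.05 ± 0.23, adjusted p = 0.013), and F0 C57BL/6J was far higher and spread widely, at 257 ± 129 (SD, n = 3), with its allele falling by 1.19. Oasl2, a relative of the oligoadenylate synthetases, had 5.99, 4.77 and 1.22 in F0 Cast/EiJ, 13.3, 9.18 and 15.5 in F1 B6xCast and 11.7, 25.4 and 13.1 in F1 CastxB6 (1.75 ± 0.40, adjusted p = 0.015), against 153 in F0 C57BL/6J. Irf7 and Oasl2 had 28.2 and 11.3 unique hits per F1 library on the Cast/EiJ allele, and Oasl2 a unique ratio of 0.77, so both rest on few reads. Parp14 rose by 0.43 ± 0.12 (adjusted p = 0.045), a call lost under 11 of 15 alternatives. Over all genes the alleles changed differently in 16.1% (9.2% higher on the Cast/EiJ side), and on unique hits in 15.7% (11.5% higher). They did so in 7 of the 14 interferon genes, all higher on the Cast/EiJ side, in count equivalents as on unique hits. The median of the C57BL/6J allele was -0.30 in this list. Only 1 gene was called without F0 Cast/EiJ replicate 2. The microglial markers Csf1r, C1qa and Cx3cr1 summed to 1.81 to 2.57 FPKM in F0 Cast/EiJ, 2.38 to 3.77 in F1 B6xCast and 2.30 to 3.26 in F1 CastxB6, and their part in the result was not tested. Limma called none of 9 antigen processing genes, where 2 had an unadjusted p under 0.05 and edgeR called 0.

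In the list of endoplasmic reticulum chaperones and the unfolded protein response, 3 of 26 genes fell and none rose, with a median of -0.10. That was 11.5% called, beside 14.6% called and 4.99% falling over all genes, and each cross alone had 2 falls. Hyou1, Hsp90b1 and Hspa5 are chaperones of that compartment, and promoters of such genes are known for the endoplasmic reticulum stress element, which reads CCAAT, then 9 bases of any kind, then CCACG. In RefSeq promoters of 300 bases (GRCm38.p6), found for 21 of the 26 genes, it was present on either strand in 6 of the 21 and in 0.119% of all 32851 promoters. The windows of Hspa5 and Hsp90b1 are shown because both genes fell and their promoters hold the element, given in capitals. The other 4 genes with the element, Calr (-0.23), Canx (-0.10), Dnajc3 (-0.11) and Syvn1 (-0.29), did not pass the test, and Hyou1 was not among the matched promoters.
Hspa5: ttcaCCAATCGGAGGCCTCCACGacgg
Hsp90b1: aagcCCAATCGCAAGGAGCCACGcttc
They lie at chr2:34772021-34772047 on the forward strand and chr10:86705634-86705660 on the reverse strand.

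Hyou1 had 1860, 2030 and 2020 count equivalents in F0 Cast/EiJ, 1540, 1750 and 1620 in F1 B6xCast and 1710, 1630 and 1580 in F1 CastxB6, without overlap (-0.27 ± 0.06, adjusted p = 0.013). Hspa5, the main chaperone of the compartment, had 3710, 4840 and 5240 in F0 Cast/EiJ, 3100, 4200 and 3340 in F1 B6xCast and 3570, 3060 and 3010 in F1 CastxB6, with overlap (-0.44 ± 0.12, adjusted p = 0.036). Hsp90b1 fell by 0.33 ± 0.09 (adjusted p = 0.031), without overlap. No gene of the list was called without F0 Cast/EiJ replicate 2 or 3, and 1 was called without F1 B6xCast replicate 3 or F1 CastxB6 replicate 2 or 3. Without F1 B6xCast replicate 1 or F1 CastxB6 replicate 1, 5 were called, and without both libraries that stood apart, 6.

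Lipid genes moved in both directions. Of 21 cholesterol genes Stard4, a sterol carrier, had 200, 243 and 254 count equivalents in F0 Cast/EiJ, 349, 386 and 393 in F1 B6xCast and 374, 437 and 428 in F1 CastxB6 (0.76 ± 0.10, adjusted p = 0.00058), and Insig1, which retains SREBP in the endoplasmic reticulum, rose by 0.38 ± 0.06 (adjusted p = 0.0024). These 2 rises made 9.52% of the cholesterol list called, beside 14.6% over all genes. The rises in this list numbered 4 without F0 Cast/EiJ replicate 3 and 5 without F1 B6xCast replicate 1. Of 22 fatty acid genes 4 rose and 3 fell, 31.8% called beside the same 14.6%. Elovl6, which extends saturated chains, rose by 0.41 ± 0.06 (adjusted p = 0.0022), while Elovl5, which extends polyunsaturated ones, fell by 0.38 ± 0.07 (adjusted p = 0.0057), as did the desaturase Scd1 (-0.51 ± 0.13, adjusted p = 0.028). The fatty acid rises numbered 1 without F0 Cast/EiJ replicate 1 or 2 or F1 B6xCast replicate 2, and 2 without F1 B6xCast replicate 3 or F1 CastxB6 replicate 2 or 3.

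Of 63 nuclear OXPHOS subunits 7 rose and none fell, 11.1% called beside 14.6% over all genes, where 9.62% rose. In F1 B6xCast alone 3 rose and in F1 CastxB6 alone 5. Of the 56 with a unique ratio of at least 0.8 (as defined for the ribosomal genes) 4 rose, with a median of 0.03. Leaving out single libraries gave 3 to 13 rises (3 without F0 Cast/EiJ replicate 1 and 13 without F1 B6xCast replicate 1). Atp5e, a small subunit of ATP synthase, averaged 107 count equivalents in F0 Cast/EiJ, 340, 448 and 531 were measured in F1 B6xCast and 512, 433 and 468 in F1 CastxB6, without overlap (2.08 ± 0.16, adjusted p = 1.6e-05). Slc2a3, a neuronal glucose transporter, fell by 0.35 ± 0.07 (adjusted p = 0.0078). Of 106 splicing factors 7 rose and 14 fell, 19.8% called beside 14.6% over all genes, with a median of -0.09. Of the 98 with a unique ratio of at least 0.8 (as defined for the ribosomal genes) 5 rose and 13 fell. Sf3a1, a core spliceosome protein, fell by 0.27 ± 0.05 (adjusted p = 0.0032), and the falls include the imprinted Snrpn. The splicing falls numbered 4 without F0 Cast/EiJ replicate 2, 7 without F1 CastxB6 replicate 2 or 3, 9 without F1 CastxB6 replicate 1 and 22 without F1 B6xCast replicate 1. Among 34 aminoacyl-tRNA synthetases limma called none, 4 had an unadjusted p under 0.05 and edgeR called 0. Of 19 immediate early genes (5.26% called) Per1, which is also a clock gene, was called (-0.30 ± 0.06, adjusted p = 0.0093, limma), with overlap between pure strain and hybrids. Its change was -0.13 in F1 B6xCast, where it was not called (adjusted p = 0.27, limma), and -0.46 in F1 CastxB6. The difference between the crosses was not called either (adjusted p = 0.20, limma).

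Clustered protocadherins, adhesion proteins by which neurites recognise each other, had the highest share called after the imprinted genes: 14 of 24 rose and none fell, 58.3%, with 11 rises and a median of 0.37 for F1 B6xCast, and 13 and 0.46 for F1 CastxB6. Over all genes 14.6% were called and 9.62% rose. Pcdhb20 had 47.4, 43.1 and 49.5 count equivalents in F0 Cast/EiJ, 140, 138 and 150 in F1 B6xCast and 172, 187 and 174 in F1 CastxB6 (1.75 ± 0.10, adjusted p = 1.9e-06). F0 C57BL/6J stood at 274 ± 17.9 (SD, n = 3) and its allele fell by 0.42, so both alleles lay between the pure strains. Pcdhb9 had 16.6, 35.7 and 40.9 in F0 Cast/EiJ, 142, 135 and 171 in F1 B6xCast and 136, 148 and 144 in F1 CastxB6 (2.29 ± 0.24, adjusted p = 0.00015). Pcdhb8 rose by 1.75 ± 0.16 (adjusted p = 6.3e-05). Of the 14 rises 13 were Pcdhb genes and 1 was Pcdha3. Over all genes the alleles changed differently in 16.1% (9.2% higher on the Cast/EiJ side), and on unique hits in 15.7% (11.5% higher). They did so in 17 of the 24 protocadherins, 16 higher on the Cast/EiJ side and 1 lower, and on unique hits in 17, all higher. With any 1 library left out 12 to 14 protocadherin rises were called. These genes are neighbours with related sequences, so they are not independent observations.

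Among cytosolic ribosomal proteins 29 of 63 rose and 3 fell, 50.8% called beside 14.6% over all genes, with a median of 0.34. Many of these genes have processed copies elsewhere in the genome, so reads can be split between copies. The unique ratio, a gene's share of all unique hits over its share of all count equivalents in a pure strain, was below 0.8 in either strain for 41 of the 63. Of the other 22 genes 3 rose and 1 fell, with a median of 0.21. Over all genes, 26.4% of the 613 below that ratio were called, 20.7% up and 5.71% down, against 13.9% of the 10130 above it, 8.94% up and 4.95% down.

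Several of the largest changes were of this kind. Ftl1, the ferritin light chain, had 16.2, 18.3 and 11.8 count equivalents in F0 Cast/EiJ, 1280, 1160 and 1150 in F1 B6xCast and 1210, 1170 and 1080 in F1 CastxB6 (6.18 ± 0.12, adjusted p = 3.2e-10), with unique ratios of 0.75 and 0.64 in the pure strains. Eno1, a glycolytic enolase, rose by 3.36 ± 0.06 (adjusted p = 2.9e-10) with ratios of 0.53 and 0.43. Rps18, Rpl7a, Rpl27, Rps13 and Fau rose by 4.45, 4.09, 3.89, 3.38 and 3.34, each with a ratio under 0.8 in at least 1 strain, and the change of Rps18 minus that of its C57BL/6J allele was 4.32 in count equivalents but 0.27 on unique hits (adjusted p = 0.51, edgeR). Among the falls, Stmn1 (-5.52) had 1 unique hit per F1 library on the Cast/EiJ allele and Capzb (-4.78) had 9. These values are uncertain as measures of expression, and the part of shared reads in them was not tested.

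**Figure D3:**
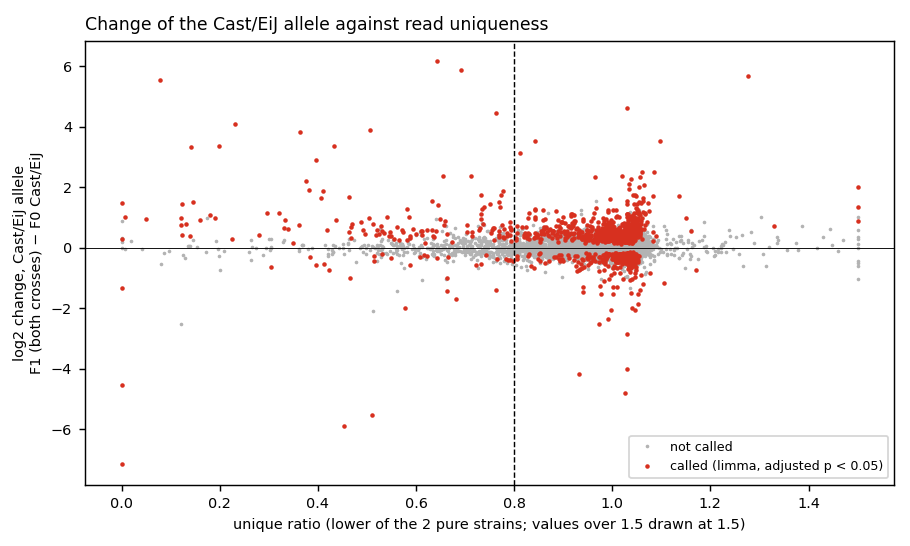
Log2 change of the Cast/EiJ allele over both crosses (vertical axis) against the unique ratio, the lower of both pure strains (horizontal axis), for each tested gene outside the imprinted list. Red points are genes called by limma, grey points the others, and the dashed line marks a ratio of 0.8. Ftl1, at 6.18, lies to the left of the line.

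A second ranking was chosen after the values were seen. It started from protein-coding genes outside the imprinted list that were called in each cross, without overlap and with at least 100 count equivalents. Of 10743 genes, 478 rises and 153 falls met this. The ranking kept those with a unique ratio of at least 0.8 and at least 25 unique hits on the Cast/EiJ allele. The difference from the C57BL/6J allele also had to be called with the same sign in both units. Genes with Gm, Rik or Pcdhb names were left out. The ranking held 270 rises and 81 falls. Hdc, which makes histamine, had 204, 250 and 200 count equivalents in F0 Cast/EiJ, 535, 458 and 523 in F1 B6xCast and 489, 513 and 617 in F1 CastxB6 (1.26 ± 0.10, adjusted p = 3.3e-05). Its C57BL/6J allele fell by 1.01, from 335 to 167, so the alleles differed more in the hybrids than in the pure strains. Cstb, a cathepsin inhibitor, rose from 59.8 to 178 on average, close to the 195 of F0 C57BL/6J (1.55 ± 0.14, adjusted p = 5.2e-05). Itga6, a laminin receptor subunit, rose by 1.72 ± 0.19 (adjusted p = 0.00024). Glp2r, the receptor of glucagon-like peptide 2, rose by 1.53 ± 0.17 (adjusted p = 0.00021), to 470 on average against 2560 in F0 C57BL/6J.

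Tas1r1, a taste receptor subunit, had the largest fall of this ranking. It had 2210, 3050 and 2870 count equivalents in F0 Cast/EiJ, 157, 169 and 164 in F1 B6xCast and 174, 167 and 175 in F1 CastxB6 (-3.99 ± 0.10, adjusted p = 2.2e-09). The difference from the C57BL/6J allele was -4.02 on unique hits. The ranking required a called difference of this sign, so that value is no separate support. F0 C57BL/6J averaged 60.7, and the change of its allele was 0.03. Isyna1, the first enzyme of inositol synthesis, had 429, 488 and 555 in F0 Cast/EiJ, 223, 276 and 261 in F1 B6xCast and 227, 221 and 241 in F1 CastxB6 (-1.02 ± 0.10, adjusted p = 0.00012), near the 214 of F0 C57BL/6J.

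In Sncg, Sgk1, Plekhj1 and Tmx3 the Cast/EiJ allele fell while the C57BL/6J allele rose. Sncg, a synuclein of ganglion cells, had 1000, 1120 and 1190 count equivalents in F0 Cast/EiJ, 147, 355 and 330 in F1 B6xCast and 480, 412 and 235 in F1 CastxB6 (-1.85 ± 0.28, adjusted p = 0.002). Its C57BL/6J allele rose by 0.98, and the mean of both alleles, 1302, was close to the pure strains at 1103 and 1157. Sgk1, a stress-induced kinase, fell by 1.31 ± 0.18 (adjusted p = 0.0009) against a rise of 0.94, with a mean of alleles of 4802 beside 3907 in F0 Cast/EiJ and 4157 in F0 C57BL/6J. Ywhah, a 14-3-3 protein, fell by 2.34 ± 0.28 (adjusted p = 0.00042), and its C57BL/6J allele was at 0.80 (adjusted p = 0.081). Sncg, Sgk1 and Ywhah had 29, 28.8 and 33.5 unique hits per F1 library on the Cast/EiJ allele, so their split between alleles rests on few reads, and the part of this in the changes was not tested.

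The Cast/EiJ allele differed between the crosses in 27 genes (0.251%), 18 higher in F1 CastxB6 (0.168%) and 9 higher in F1 B6xCast (0.0838%), and on unique hits with edgeR in 24 (0.223%). An unadjusted p under 0.05 was found for 503 genes. Of the 27, 23 were among the 33 imprinted genes tested, a list known beforehand to depend on the parent. In a pure strain the value sums an active and a silent copy, so on this scale an active allele alone stands near 1 in a hybrid. Peg3, used from the father, had 4350, 5400 and 4780 count equivalents in F0 Cast/EiJ, 12.8, 18.8 and 18.1 in F1 B6xCast, where the Cast/EiJ allele came from the mother, and 9500, 10300 and 10500 in F1 CastxB6. Its changes were -8.12 and 1.06. Snrpn, Sgce, Impact and Rasgrf1 showed the same split, with -7.41 and 1.06, -6.97 and 0.88, -6.00 and 1.05, and -5.95 and 1.09.

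Rian, a long RNA used from the mother, went the other way, with 1810, 1900 and 1770 count equivalents in F0 Cast/EiJ, 4370, 4060 and 4160 in F1 B6xCast and 0.0338, 1.34 and 1.38 in F1 CastxB6. Meg3, from the same region, had a change of 1.20 in F1 B6xCast and -7.21 in F1 CastxB6. H13 and Grb10, whose imprinting is known to depend on isoform or tissue, differed less. H13 had 1160, 1180 and 1170 in F0 Cast/EiJ, 1540, 1430 and 1460 in F1 B6xCast and 667, 648 and 646 in F1 CastxB6, a difference of -1.17 ± 0.06 between the crosses (adjusted p = 7.8e-07). Outside the imprinted list A330076H08Rik, Zdbf2, Pisd and Tbp were called. A330076H08Rik (-1.96 in F1 B6xCast and 0.92 in F1 CastxB6) and Zdbf2 (-5.8 and 0.82) showed the same kind of split as Peg3. The list need not hold every imprinted gene.

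**Figure D4:**
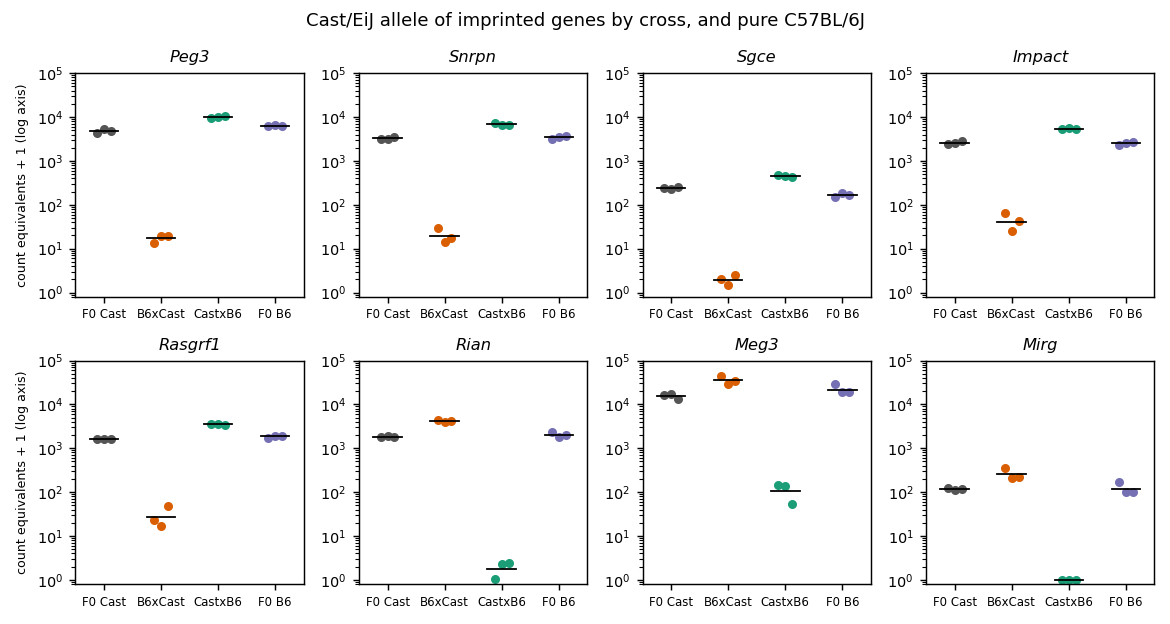
Count equivalents plus 1 (log axis) of the Cast/EiJ allele of 8 imprinted genes in each library of both crosses and of F0 Cast/EiJ, with F0 C57BL/6J beside them. Points are libraries and lines geometric means. Peg3, Snrpn, Sgce, Impact and Rasgrf1 are low in F1 B6xCast, and Rian, Meg3 and Mirg are low in F1 CastxB6.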

How the data were processed

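Retinal RNA was sequenced as read pairs of 101 bases. Per the labels and the study's methods, reads were trimmed with Trim Galore 0.2.6, aligned with Bowtie 0.12.9 to Ensembl 67 cDNA (mm9) rebuilt per strain for F0 and for both strains for F1, and quantified with MMSEQ. Count equivalents are a signal normalized across libraries by the authors. The natural log of expression was also deposited by the authors, and its exponential is given as FPKM. Unique hits are raw counts deposited by the authors. Posterior SDs and the authors' model comparisons were not used (2 tables, 54 per-sample columns).

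Changes were tested on log2(value + 1) with limma 3.58.1 (trend) over 9 columns, and the difference between alleles over 18 columns with the library as a block (consensus correlation 0.222), with Benjamini-Hochberg adjustment over all genes. The pseudocount understates changes of low genes. Unique hits were tested with edgeR 4.0.16, and edgeR and DESeq2 1.42.0 on rounded count equivalents, other scalings, filters and left-out libraries were alternatives. The code was tested on simulated data. Libraries are pools, and p-values measure the spread between pools. Replicate numbers were not used as pairs.

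The members and lists were chosen with earlier results of these data known. Named genes were the 10 largest protein-coding rises and falls without overlap that were called in each cross (at least 100 count equivalents, imprinted list left out), up to 3 called members per list, Crx, Nrl, Nr2e3 and Rorb, and for the crosses the 10 smallest p inside and 5 outside the imprinted list. Other list members and the second ranking were chosen after their values were seen. Some results are not reported here.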

Additional observations from a re-analysis of the deposited data

Results flagged for a closer look

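The Cast/EiJ allele differed between the crosses by limma's test of that difference (F1 CastxB6 minus F1 B6xCast, log2) in 14 named genes. In the imprinted list the difference was 9.18 for Peg3, 8.47 for Snrpn, 7.85 for Sgce, 7.05 for Impact, 7.04 for Rasgrf1, 4.78 for Nap1l5, 4.58 for Zrsr1, -7.99 for Mirg, -8.42 for Meg3 and -11.19 for Rian. For Mirg and Rian, whose allele is near 0 in F1 CastxB6, and for Sgce and Zdbf2, near 0 in libraries of F1 B6xCast, the size depends on the pseudocount and is no bound. Over the alternatives it ran from 7.60 to 8.79 for Sgce and from 4.91 to 7.85 for Zdbf2. Outside the list, A330076H08Rik (2.89) and Zdbf2 (6.65) were also called on unique hits. Pisd (-0.46) and Tbp (-0.92) were not called on unique hits (adjusted p = 0.579 and 0.914, edgeR), and their calls were lost under 5 of 14 and 9 of 15 alternatives.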

How the results depend on the processing

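With genes of at least 500 unique hits, where fewer genes were tested, the calls were 964 over both crosses, 549 for F1 B6xCast, 767 for F1 CastxB6, 11 between the crosses and 963 between the alleles. DESeq2 called 44 genes between the crosses. Leaving out 1 library gave 961 to 2113 calls over both crosses, 587 to 1198 for F1 B6xCast (626 without F0 Cast/EiJ replicate 2, 587 and 592 without F1 B6xCast replicates 2 and 3), 559 to 1653 for F1 CastxB6 (707 without F0 Cast/EiJ replicate 2, and 671, 610 and 559 without F1 CastxB6 replicates 1, 2 and 3), 23 to 27 between the crosses and 1342 to 1674 between the alleles. Same-numbered libraries had correlations from -0.0996 to 0.376, and libraries of unlike number from -0.319 to 0.173. The 0.376 was between replicate 1 of F0 Cast/EiJ and replicate 1 of F1 B6xCast, the libraries that stood apart. Of 9 libraries 5 correlated best with their own number, which does not settle whether the numbers pair them. With a replicate block the calls were 1681, 997, 1286, 30 and 1886. With the deposited log expression Pde6h (-0.45), Dnaja1 (-0.13) and Hnrnpk (-0.09) reversed, and the cause was not tested. Of 150 results on named genes, 108 kept their call under all alternatives run for them. Few reads limit some alleles: 22 genes had fewer than 5 unique hits per library on the Cast/EiJ allele.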
